A study of Bos taurus with 24 samples.

Results

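In 7 cows of the study the speed and the quality of the embryos disagreed, and the granulosa cell RNA of these cows was compared. The kinetic score of a cow is the mean developmental class of its blastocysts (BLs, embryos about a week old with a fluid-filled cavity), scored 1 when not yet expanded, 2 when expanded and 3 when hatching or hatched. The morphology score is the mean quality class of the same BLs, scored 1 when poor, 2 when good and 3 when excellent. Cows that scored at least 1.60 for kinetic but at most 2.00 for morphology were called fast modest (3 cows, numbers 12, 16 and 17), and cows that scored at most 1.33 for kinetic but at least 2.50 for morphology were called slow good (4 cows, numbers 5, 7, 11 and 20). The words modest and good only name groups here, since a morphology score of 2.00 equals the class good of the study. These 7 cows were chosen from 24 on the scores given in the labels, and no expression value was used. Cow 8, which the study left out as an outlier, and the 2 cows without BLs were in no comparison.

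All cows were slaughtered Holstein cows that had calved at least once, were in the luteal phase and had not been synchronized, with 1 RNA library per cow. Each library was made from granulosa cells pooled over the antral follicles of 1 cow, after leukocytes had been reduced with anti-CD45 beads and erythrocytes by lysis. The oocytes of the same cow were matured, inseminated and cultured separately from those of other cows, with semen of a bull of high or low Nordic Total Merit (NTM), a breeding index. The bulls of 6 of the 7 cows were of high NTM, and the bull of cow 5, a slow good cow, was of low NTM. The study took the effect of the bull out of its scores, while the scores used here are those of the labels and still hold it. A library of pooled cells cannot tell a change in the share of a cell type, or of a follicle stage, from a change in the RNA of each cell.

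Granulosa cells line the antral follicle and surround the oocyte. They turn androgens into oestradiol, exchange small molecules with the oocyte through gap junctions, and their state changes as a follicle grows or becomes atretic. For this reason their RNA is used to look for markers of how well an oocyte can develop. A BL that expands early and a BL with a compact inner cell mass and an even trophoblast are both held to be good outcomes, and cows in which these part ways allow the question whether granulosa RNA follows one or the other. Genes are given by their Ensembl identifiers, since the files do not pair them with symbols, so no granulosa, theca or leukocyte marker was looked up and the labelled cell type was not checked against markers.

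The kinetic scores were 1.60, 1.64 and 1.70 in the fast modest cows 12, 16 and 17. They were 1.33, 1.25, 1.29 and 1.33 in the slow good cows 5, 7, 11 and 20. The morphology score was 2.00 in each fast modest cow and 3.00, 2.67, 2.60 and 2.50 in the slow good cows, in the same order. The group means were less than 1 class apart on either scale. Some cows of the study had few inseminated oocytes, and the labels do not give the number of BLs behind each score. How firmly the scores place a cow in its group was therefore not tested. Just outside the limits lay cow 6 (kinetic 1.36, morphology 2.57), cow 4 (1.25 and 2.33) and cow 24 (1.83 and 2.29). BL rate, the share of inseminated oocytes that became BLs, was 30%, 70% and 71% in the fast modest cows and 29%, 50%, 25% and 67% in the slow good cows. The means were 57.0% ± 23.4 (SD, n = 3) and 42.8% ± 19.5 (SD, n = 4), with overlapping groups (exact permutation test, two-sided p = 0.286, 0.357 after Benjamini-Hochberg adjustment over 5 measures).

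**Figure D1:**
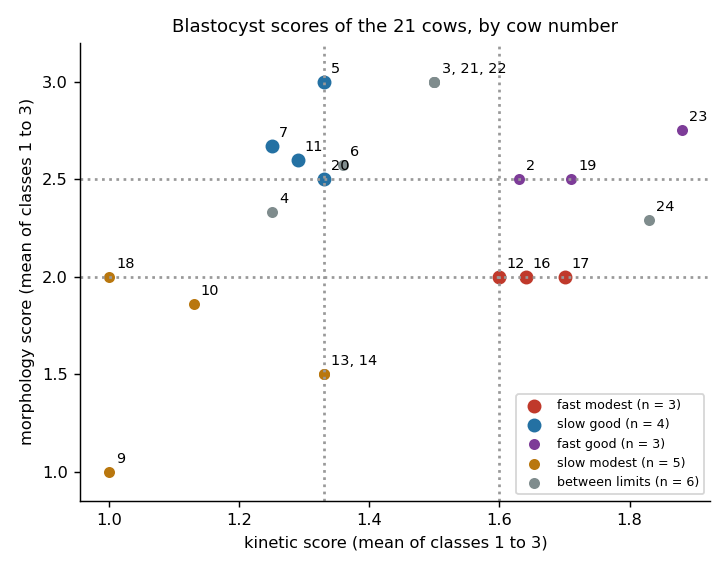
Kinetic score (horizontal) and morphology score (vertical) of the 21 cows with BLs other than cow 8, each point labelled with its cow number and dotted lines at the limits of 1.33, 1.60, 2.00 and 2.50. The 3 fast modest cows all sit at a morphology score of 2.00, and the 4 slow good cows lie at the upper left, with cows 4 and 6 close to them.

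The deposited read counts of the 7 libraries summed to between 21488333 and 27073481 per cow, within the range of the 14 other cows with BLs (15525201 to 27074496). The total counts of the groups overlapped (exact permutation test, two-sided p = 0.457, n = 3 and 4). Cow 20 stood apart among the slow good cows, with 17771 genes that had at least 1 count against 16307 to 16475 in the other 3. It also had 80.8 CPM (counts per 1000000 counts of the library) on genes with a count in at most 5 of the other 23 cows, against 6.76 to 18.9 in the other 6 libraries. Outside the comparison cow 24 stood further apart, with 21629 genes, 1175 CPM on such genes and the lowest total count, 15525201. Counts without cow 20, and results on other cows without cow 24, are given below.

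In the libraries of fast modest cows the most abundant transcripts took a smaller part of the counts. The 10 highest genes held 25.9%, 26.04% and 30.7% of the counts in cows 12, 16 and 17. They held 37.0%, 37.7%, 39.1% and 42.4% in cows 5, 7, 11 and 20. Every slow good cow lay above every fast modest cow, and the difference of the means was -11.5 percentage points (27.5% ± 2.74, SD, n = 3, against 39.0% ± 2.40, SD, n = 4). With 35 ways to assign 7 cows, the exact permutation test cannot give a two-sided p under 0.0571, and this was the p reached (adjusted p = 0.0952). Genes with at least 1 count were fewer in fast modest cows, at 15559, 16085 and 16079 in cows 12, 16 and 17 against 16307 or more in each slow good cow, with the same exact permutation p of 0.0571. In the 14 other cows with BLs, the 10 highest genes held from 20.86% (cow 19, fast good) to 39.52% (cow 3), with a median of 32.3%. Those cows had from 15562 (cow 13, slow modest) to 21629 (cow 24) genes with at least 1 count, with a median of 16464. Low values of either measure were thus not particular to fast modest cows.

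Of the 15 genes that were among the 10 highest in any of the 7 libraries, 7 were among them in all. The log2 difference (fast modest minus slow good) was negative for 12 of the 15, with a median of -0.42 and a range from -1.58 to 1.40. For 6 of them every fast modest cow lay below every slow good cow, and for none the reverse, where 11.1% and 10.9% of all genes tested did so. At an unadjusted p under 0.05 there were 6 lower and 2 higher. None of the 15 passed the test described next, and their smallest adjusted p in edgeR was 0.104. The 15 were picked by level in these same libraries and include the genes whose share is given above. Their direction is therefore no separate support.

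No gene passed the threshold between fast modest and slow good cows. In edgeR's quasi-likelihood test of the 11930 genes with 1 CPM or more in at least 3 of the 7 libraries, 0 genes (0%) had a false discovery rate (FDR) under 0.05. The smallest FDR was 0.0561, and 10 genes, 4 higher and 6 lower in fast modest cows, were under 0.1. At an unadjusted p under 0.05 there were 3330 genes, of which 1719 (14.4% of the genes tested) were higher and 1611 (13.5%) lower in fast modest cows. With upper-quartile in place of TMM scaling the split was 1276 higher and 1875 lower.

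The call depended on the method. DESeq2's Wald test on the same counts gave 1740 genes at an FDR under 0.05 (860 higher and 880 lower in fast modest cows), and limma voom with weights for library quality gave 4730 (2224 higher and 2506 lower). All 3330 genes with an unadjusted p under 0.05 in edgeR had the same sign of difference in both. Both used the same counts and cows, so the shared sign is no separate support. The FDR in edgeR was under 0.25 for 4810 genes. The count of 0 thus stood beside many small p-values, of which the smallest was 4.70e-06.

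Without any threshold on p, the normalized CPM of the groups did not overlap for 2627 genes. Every fast modest cow was above every slow good cow for 1306 of them (10.9% of the genes tested) and below for 1321 (11.1%). Over a log2 difference of 1 there were 118 such genes on the higher and 432 on the lower side, and over a log2 difference of 2 there were 8 and 91. The filter favours the lower side, since a gene can pass through 3 of the 4 slow good cows but needs all 3 fast modest cows. With a filter on the mean of both group means (at least 1 CPM, 11802 genes) the counts were 117 and 397 over 1, and 9 and 79 over 2, and with 1 CPM in all 7 libraries (10723 genes) they were 87 and 237, and 5 and 14. Over all genes tested the median absolute log2 difference was 0.31. No gene was without a count in all cows of one group and had 10 or more counts in each cow of the other.

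The genes with the smallest p-values in each direction were chosen from those whose groups did not overlap, and none of them passed the threshold of 0.05 in edgeR. Normalized CPM of ENSBTAG00000023374 was 17.3, 16.1 and 15.0 in the fast modest cows 12, 16 and 17. In the slow good cows 5, 7, 11 and 20 it was 6.53, 6.08, 6.86 and 6.50. The 4 slow good cows lay within 1 CPM of each other, and the lowest fast modest cow had more than any of them by over 8 CPM. The log2 difference was 1.31 (SE 0.12), a fold of 2.48, with an edgeR FDR of 0.0561.

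The second gene on the higher side, ENSBTAG00000010105, was measured at 97.3, 67.1 and 63.1 CPM in the fast modest cows 12, 16 and 17. Its level was 28.5, 22.3, 18.5 and 26.5 CPM in cows 5, 7, 11 and 20. The fast modest cows spread more widely than the slow good cows, with cow 12 above the rest. The log2 difference was 1.66 (SE 0.21), with an edgeR FDR of 0.0739.

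On the lower side, ENSBTAG00000015996 was at 23.3, 24.0 and 21.4 CPM in cows 12, 16 and 17. The slow good cows 5, 7, 11 and 20 had 48.0, 56.3, 45.7 and 52.0 CPM. Here cow 17 was as far from the slow good cows as the other fast modest cows were. The log2 difference was -1.14 (SE 0.12), with an edgeR FDR of 0.0739.

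ENSBTAG00000012050, the other gene on the lower side, had 3.52, 4.46 and 5.24 CPM in cows 12, 16 and 17 and 13.2, 14.4, 11.2 and 17.6 CPM in cows 5, 7, 11 and 20. Cow 20 was the highest slow good cow. The log2 difference was -1.68 (SE 0.21), with an edgeR FDR of 0.0739. These genes were chosen for a sign that held without each cow, a condition that all 2627 genes without overlap met. They were also chosen for a small p, which favours genes with a small spread in these 7 cows. With a spread shared by 21 cows their SEs in edgeR were larger. These were 0.38 for ENSBTAG00000023374, 0.56 for ENSBTAG00000010105, 0.43 for ENSBTAG00000015996 and 0.49 for ENSBTAG00000012050, with FDRs from 0.0999 to 0.161. When each of the 7 cows was left out in turn, the log2 difference stayed between 1.26 and 1.36 for ENSBTAG00000023374, between 1.44 and 1.78 for ENSBTAG00000010105, between -1.19 and -1.09 for ENSBTAG00000015996 and between -1.82 and -1.54 for ENSBTAG00000012050. With cow 24 counted as fast modest and cows 4 and 6 as slow good, ENSBTAG00000015996 was at -0.54 and ENSBTAG00000012050 at -0.85, and without cow 24 they were at -1.05 and -1.62.

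**Figure D2:**
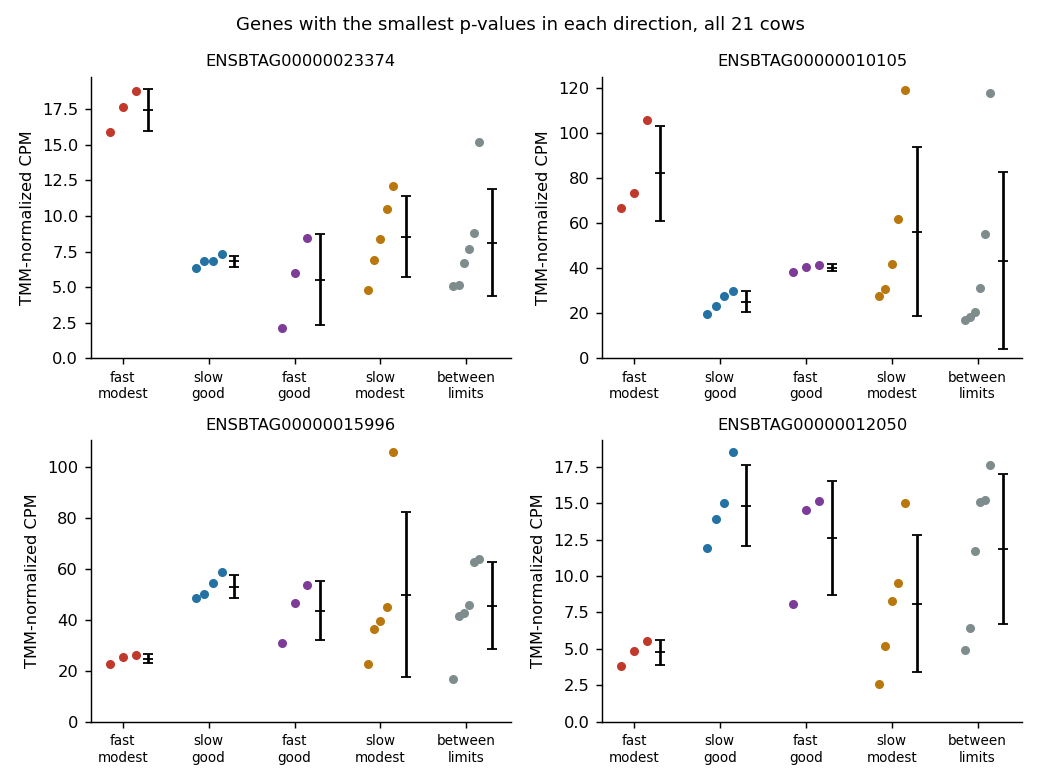
Normalized CPM (vertical axes from 0, all 21 cows scaled together) of the 4 genes in fast modest (n = 3), slow good (n = 4), fast good (n = 3), slow modest (n = 5) cows and cows between the limits (n = 6), with 1 point per cow and a bar for mean ± SD. The fast modest and slow good points do not overlap in any panel, while the slow modest cows and the cows between the limits spread over both, up to 119 and 118 CPM for ENSBTAG00000010105.

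Weakly expressed genes tended to lie lower, and strongly expressed genes higher, in the fast modest cows. The genes were put into 5 bins of 2386 by their mean level. In the bin with the lowest level (0.635 to 4.82 CPM), 23.9% had an unadjusted p under 0.05 and a lower level in fast modest cows, and 3.77% a higher level. In the bin with the highest level (49.3 CPM and over), 7.08% were lower and 22.8% higher. The share of genes with an unadjusted p under 0.05 in either direction hardly varied with the level, from 26.4% to 29.9%. The median log2 difference passed from -0.43 in the lowest bin through -0.10, 0.02 and 0.10 to 0.15 in the highest, and it kept its sign at both ends in each fit that left out 1 cow. The 15 highest genes above, of which 12 were lower, did not follow this.

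The filter bears on the lowest bin, in which 159 genes were at 1 CPM in 3 or more slow good cows and in no fast modest cow, and 13 in all fast modest cows and no slow good cow. With the filter on the mean of the group means and bins by that mean, the median log2 difference of the lowest bin was -0.40, with 23.0% lower and 4.11% higher. With 1 CPM in all 7 libraries it was -0.24, with 21.8% lower and 5.36% higher, and in the highest bin 7.41% were lower and 19.3% higher.

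**Figure D3:**
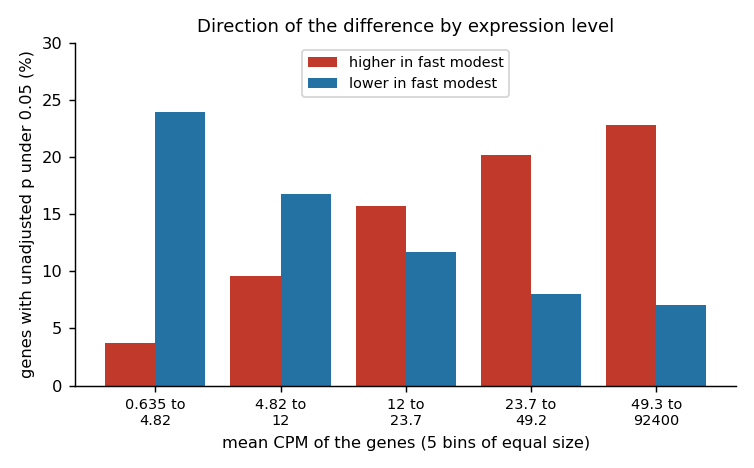
Share of genes (vertical, in percent) with an unadjusted edgeR p under 0.05 that were higher (red) or lower (blue) in fast modest cows, in 5 bins of the 11930 genes by mean CPM (horizontal). The blue bars fall from 23.9% to 7.08% and the red bars grow from 3.77% to 22.8%.

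Cow by cow, this pattern was graded rather than shared evenly. Relative to the mean of the slow good cows, the median gene of the lowest bin lay at a log2 difference of -0.66 in cow 12, -0.44 in cow 16 and -0.18 in cow 17. Each slow good cow, measured from the mean of the other 3, lay between -0.07 and 0.16. The genes of this bin held 0.471%, 0.556% and 0.610% of the counts in cows 12, 16 and 17 and 0.674%, 0.696%, 0.601% and 0.500% in cows 5, 7, 11 and 20. On this share, which is not scaled, cow 20 lay among the fast modest cows and cow 11 lay below cow 17. Genes at 1 CPM or more numbered 11124, 11498 and 11725 in cows 12, 16 and 17. They numbered 11957, 12013, 11851 and 11548 in cows 5, 7, 11 and 20, so here too cow 20 lay among the fast modest cows. RNA integrity, age and sampling date, for which the study adjusted its models, are not in the labels and were not used here, and their part in these differences was not tested.

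The fast modest cows spread more widely than the slow good cows. The median absolute log2 difference between 2 libraries over all genes tested was 0.194 to 0.3002 for the 6 pairs of slow good cows. For the 3 pairs of fast modest cows it was 0.273 (cows 12 and 16), 0.295 (cows 16 and 17) and 0.477 (cows 12 and 17). Pairs across the groups lay between 0.234 and 0.592, with a median of 0.353. The standard deviation of log2 CPM within the group was larger in fast modest than in slow good cows for 64.0% of the genes, with medians of 0.28 and 0.21.

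Cow 17 was closer to the slow good cows than to cow 12. Its median absolute log2 difference from cows 5, 7, 11 and 20 was 0.281, 0.267, 0.234 and 0.262, which lies within the range among slow good cows themselves. Cow 12 differed from the same cows by 0.528, 0.592, 0.473 and 0.533. On the first principal component of the 7 libraries, which held 60.2% of the variance, cow 12 had a score of 82.0, cow 16 of 43.9 and cow 17 of -8.81, and the slow good cows had scores from -39.4 to -25.3.

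The same order was seen gene by gene. Cows 12 and 16 both lay outside the range of the slow good cows, on the same side, for 6381 genes. Cow 17 lay beyond the range on that side too for 2627 of these (41.2%), within the range for 3037 (47.6%) and beyond it on the opposite side for 717. When cows 16 and 17 were both outside (3028 genes), cow 12 was with them for 86.8%, and when cows 12 and 17 were both outside (3139 genes), cow 16 was with them for 83.7%.

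Leaving out single cows moved the count of genes accordingly. Without cow 17, edgeR gave 3195 genes at an FDR under 0.05 and 5169 at an unadjusted p under 0.05. Without cow 16 the counts were 1 and 2159. Without any other cow no gene had an FDR under 0.05, and the count at an unadjusted p under 0.05 was 1930 without cow 12, 2104 without cow 7, 2770 without cow 5, 2810 without cow 11 and 2857 without cow 20. Cow 17 had the highest kinetic score of the 7 (1.70) and, with 22297516, the lowest total count of the 3 fast modest cows.

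**Figure D4:**
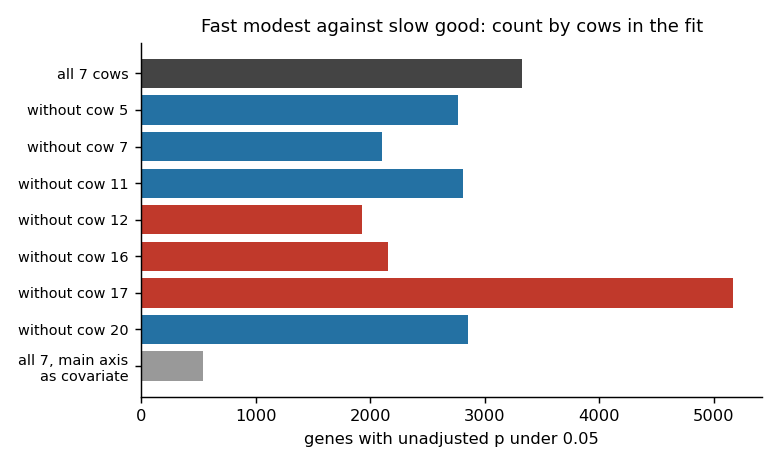
Number of genes with an unadjusted edgeR p under 0.05 (horizontal, from 0) for all 7 cows, without each slow good (blue) or fast modest (red) cow, and with the main axis of the other 14 cows as a covariate (grey). The count lies between 1930 and 2857 when any cow but 17 is left out, is 5169 without cow 17 and is 540 with the covariate.

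To place the 7 cows on an axis that they had not shaped, their libraries were projected on the first principal component of the other 14 cows with BLs, which held 38.7% of the variance among those 14 (42.0% without cow 24). The scores of the fast modest cows were 91.3, 75.2 and 41.7 (cows 12, 16 and 17). The slow good cows 5, 7, 11 and 20 scored 0.41, 7.33, 7.22 and 39.1. The groups did not overlap, but cows 17 and 20 nearly met, and the exact permutation test gave a two-sided p of 0.0571, the smallest it can give here (adjusted p = 0.0952, means 69.4 ± 25.3, SD, n = 3, and 13.5 ± 17.3, SD, n = 4). With the axis of the 13 cows without cow 24 the scores were 92.8, 75.9 and 42.0 in cows 12, 16 and 17 and 0.95, 7.30, 7.52 and 38.6 in cows 5, 7, 11 and 20. In the study, the first component of its libraries correlated with RNA integrity, which the labels do not give. Whether the axis used here follows RNA integrity was not tested.

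The axis was not particular to cows with this mixture of scores. Cow 13, a slow modest cow, scored 71.2, and cow 21, with scores of 1.50 for kinetic and 3.00 for morphology, lay at 70.1. The 3 cows that were fast with good quality (2, 19 and 23) scored -60.2, -74.1 and -11.2, at the other end from the fast modest cows. The 5 slow modest cows were spread from -18.3 to 71.2, with cow 10 at 22.9.

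**Figure D5:**
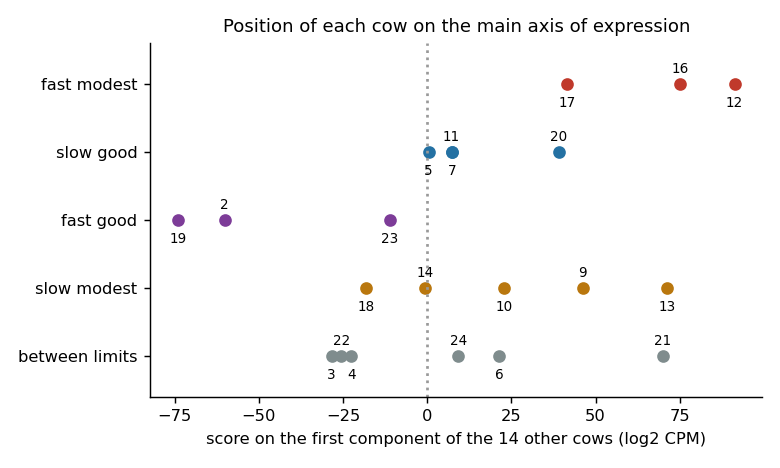
Score of each of the 21 cows (1 labelled point per cow) on the first principal component of log2 CPM of the 14 cows outside the comparison (horizontal, no unit beyond the log2 scale), by group (vertical). The fast modest cows lie at 41.7 to 91.3 and the fast good cows at -74.1 to -11.2, while slow good cows lie between them at 0.41 to 39.1.

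When that score was added to the edgeR model of the 7 cows, an alternative chosen after the data had been seen, 540 of the 11930 genes had an unadjusted p under 0.05 and none an FDR under 0.05. Of the 3330 genes with an unadjusted p under 0.05 before, 231 kept one and 2655 kept their sign. With the axis made without cow 24, 549 genes had an unadjusted p under 0.05. The covariate overlapped largely with the groups, as the scores above show, so the model had little room to separate group and axis.

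A comparison of fast modest with slow good cows moves both scores at once, so speed and quality were also compared at a fixed level of each other. For this the 7 cows were joined by the 3 fast good cows (kinetic 1.63 to 1.88, morphology 2.50 to 2.75) and the 5 slow modest cows (kinetic 1.00 to 1.33, morphology 1.00 to 2.00). In an additive edgeR model over these 15 cows and 12576 genes, 0 genes had an FDR under 0.05 for fast against slow. At an unadjusted p under 0.05 there were 1797 genes (14.3%), 1099 higher and 698 lower in fast cows. For good against modest quality there were also 0 genes at an FDR under 0.05, with 2042 genes (16.2%) at an unadjusted p under 0.05, 876 higher and 1166 lower in cows with good quality.

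DESeq2 gave 289 genes for speed and 96 for quality at an FDR under 0.05 in the same 15 cows. The interaction of speed and quality, that is the test whether the difference between fast and slow cows depended on quality, gave 0 genes at an FDR under 0.05 in edgeR, 720 under 0.1 and 2617 at an unadjusted p under 0.05.

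Of the 4 named genes, none passed an FDR of 0.05 in edgeR for speed or for quality. For ENSBTAG00000010105 the log2 difference was 0.61 (SE 0.27) for fast against slow and -1.10 (SE 0.27) for good against modest quality, with edgeR FDRs of 0.322 and 0.285. For ENSBTAG00000012050 the same differences were -0.51 (SE 0.30) and 1.09 (SE 0.29), with edgeR FDRs of 0.464 and 0.285. The genes were chosen on 7 of these 15 cows, so these values describe them and are no independent support.

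ENSBTAG00000023374 had a log2 difference of 0.42 (SE 0.30) for speed and -0.85 (SE 0.30) for quality. Each of these terms averages over the other score. With all 21 cows scaled together, the mean of this gene was 17.5 CPM in fast modest and 8.56 CPM in slow modest cows. It was 5.52 CPM in fast good and 6.84 CPM in slow good cows. The log2 interaction of speed and quality was -1.34 in edgeR (unadjusted p = 0.0176, FDR 0.158). ENSBTAG00000015996 had -0.65 (SE 0.28) for speed and 0.39 (SE 0.27) for quality. The difference between the size of the speed term and that of the quality term was not tested.

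The levels of these genes in the other corners varied widely, here with all 21 cows scaled together. ENSBTAG00000023374 was at 2.13 to 8.45 CPM in the fast good cows and at 4.84 to 12.1 CPM in the slow modest cows, below each of the fast modest cows (15.9 to 18.8 CPM). ENSBTAG00000010105 was at 38.5 to 41.5 CPM in the fast good cows, between the slow good (19.7 to 30.0 CPM) and fast modest cows (66.9 to 106 CPM). In the slow modest cows it ran from 27.7 to 119 CPM, with cow 13 above all fast modest cows.

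ENSBTAG00000015996 ran from 22.7 CPM (cow 13) to 106 CPM (cow 14) in the slow modest cows, although both scored 1.33 for kinetic and 1.50 for morphology. ENSBTAG00000012050 was at 2.58 CPM in cow 13 and 15.0 CPM in cow 14. For these 2 genes and for ENSBTAG00000010105, cows of equal scores thus differed by more than the means of the fast modest and slow good cows did.

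The same contrast was then sought in cows that the rule had not used. In the other 14 cows with BLs, expression was regressed on both scores, each divided by its SD, and kinetic minus morphology was tested. In edgeR 0 of 12732 genes had an FDR under 0.05, and 205 (1.61%) had an unadjusted p under 0.05. The smallest FDR was 1.00.

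Cow 24, which stood apart by its depth and number of genes, changed this comparison. Without it, 132 of 12635 genes (1.04%) had an unadjusted p under 0.05 and 0 an FDR under 0.05 in edgeR. Over the 11910 genes tested in the 7 and in the 14 cows, 40.4% had the same sign in both, and without cow 24 it was 53.3% of 11906 genes. Among the 3328 genes with an unadjusted p under 0.05 in the 7 cows the share was 32.7% with cow 24 (25.0% of the higher and 40.9% of the lower genes) and 53.5% without it. Among the 2625 genes whose groups did not overlap it was 31.1% and 56.2%.

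Pearson's r of the log2 values across the 3328 genes was -0.0027 with cow 24 and 0.132 without it, and across all genes -0.054 and 0.086. Genes move together and are not independent, so these values describe the sets of cows and carry no test. For kinetic minus morphology they gave no direction that held with and without cow 24. Across the same 3328 genes, r was -0.465 for the kinetic and -0.319 for the morphology term of that regression (-0.255 and -0.405 without cow 24). The values for single terms carry no test either.

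Of the 4 named genes, none had an unadjusted p under 0.05 in these cows, and each log2 value was smaller than 2 SEs. The values for kinetic minus morphology in the 14 cows were -0.15 (SE 0.40) for ENSBTAG00000023374, -0.11 (SE 0.59) for ENSBTAG00000010105, 0.47 (SE 0.36) for ENSBTAG00000015996 and 0.22 (SE 0.41) for ENSBTAG00000012050, each of the opposite sign to that in the 7 cows. Without cow 24 they were -0.015 (SE 0.45), 0.28 (SE 0.60), 0.39 (SE 0.43) and 0.028 (SE 0.49), in the same order.

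The 3 fast good against the 5 slow modest cows, a comparison of both scores in the same direction, gave 1819 of 12348 genes at an unadjusted p under 0.05 and 0 at an FDR under 0.05 in edgeR (smallest FDR 0.238). Over 11856 genes, 42.4% had the same sign as in the 7 cows, with Pearson's r of -0.46. Among the 3321 with an unadjusted p under 0.05 in the 7 cows it was 34.7%, with r of -0.60. Cow 24 is not in this comparison, and these values carry no test.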

How the data were processed

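RNA of granulosa cells was sequenced as paired-end, strand-specific reads after ribosomal RNA removal. The authors deposited raw counts of read pairs per Ensembl gene, made with STAR on the UMD3.1 genome and HTSeq-count and not normalized. Libraries were assigned by the scores in the labels, and analysis was restricted to the 24615 genes found in each list. No other column of the files was left out (0 columns).

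Counts were scaled with TMM and tested with edgeR 4.0.16 (quasi-likelihood, R 4.3.3, no covariates), with a Benjamini-Hochberg FDR threshold of 0.05. Log2 CPM used a prior count of 2. Exact permutation tests, two-sided, used scipy 1.17.1. DESeq2 1.42.0, limma 3.58.1, other scalings, filters, covariates and cow sets were alternatives. The edgeR script was tested on simulated data. Between 21488333 and 27073481 counts per library set the counting error, and p-values measure the spread between cows.

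The cows and lists were chosen with earlier results of these data known. The rule for the cows used only the scores in the labels. In each direction at most 2 identifiers were named, those with the smallest p-value among genes whose groups did not overlap and whose sign held without each cow. Gene lists could not be used, since no identifier was matched to a symbol.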

Additional observations from a re-analysis of the deposited data

Results flagged for a closer look

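In 21 sets of 4 to 6 cows, a single cow was looked for whose distance from its neighbour took up most of the range of the set (Dixon's test), which chance gives in about 1 set in 20. It was found in 5. The sets share cows, and some hold genes picked in these libraries, so the 5 cannot be read against that rate. Among the slow good cows, 17771 genes were counted at least once in cow 20, which also had 80.8 CPM on genes with a count in at most 5 of the other cows, both far above the other 3. Without cow 20 the count at an unadjusted p under 0.05 was 2857 and edgeR gave 0 genes at an FDR under 0.05.

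Among the slow good cows, cow 7 had the score farthest from the fast modest cows on the first component of the 7 libraries (-39.4, against -26.9 to -25.3). Among the slow modest cows, ENSBTAG00000015996 was at 106 CPM in cow 14, against 45.1 CPM or less in the other 4. Among the cows between the limits, ENSBTAG00000023374 was at 15.2 CPM in cow 21, against 8.80 CPM or less in the other 5. None of the 4 named genes had an interaction of speed and quality at an FDR under 0.05 in edgeR (smallest FDR 0.158, for ENSBTAG00000023374).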

How the results depend on the processing

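The count of 0 genes at an FDR under 0.05 for fast modest against slow good cows was tried under 22 alternatives. It became 2 with upper-quartile scaling, 1740 with DESeq2, 4730 with limma voom, 9 with no filter (19657 genes), 2 with 1 CPM in all 7 libraries (10723 genes), 1516 with BL rate as covariate, 2 with a spread shared by 21 cows, 1465 with cows 4 and 6 added to slow good, and 0 to 3195 without 1 cow. It remained 0 in the others. The count of 3330 at an unadjusted p under 0.05 became 5976 with limma voom, 1930 to 5169 without 1 cow, 540 with the main axis of the other 14 cows as covariate (549 with the axis without cow 24), and 2146 with wider limits that also add cow 24, which stood far apart, to fast modest. The count of 2627 genes whose groups did not overlap became 2838 to 6381 without 1 cow, since fewer cows overlap less often. It was 217 with cows 24, 4 and 6 added, 1944 with only cows 4 and 6 added, and 3388 with no filter. The axis, the wider limits, the filters on group means, the fits without cow 24 and the fit without the 15 highest genes were chosen after seeing the data. For speed and quality at a fixed level of the other, DESeq2 gave 289 and 96 genes in place of 0. The cause of these differences between methods was not tested.

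In the other cows, the count of 205 for kinetic minus morphology was 132 without cow 24. The 4 named genes were chosen for a stable sign. Of their 88 values under alternatives, 28 passed an FDR of 0.05, and the FDRs lay between 3.06e-13 and 0.951. No paired analysis was possible because no cow number is shared between the groups and the labels give no date or bull. Gene lists were not run.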
